A study of Mus musculus with 11 samples.

Results

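The expression of 6 genes of sterol synthesis and SREBP control was described in striatal cells with NF-Y knockdown. They are Idi1, Cyp51, Hsd17b7 and Sc5d, which encode enzymes of the cholesterol pathway, and Scap and Insig1, which encode regulators of SREBP, the transcription factor of that pathway. The genes were chosen by their symbols for this shared function with earlier results of these data known, and all 6 were found among the 1767 genes of the deposited table and passed the study's minimum of 200 for the highest count. The table also holds Acat2, Lbr, Sc4mol and Rnf139 of the same functions, which are described after the 6. Of these 6 genes, 5 had lower counts in the knockdown samples than in the control samples and Hsd17b7 had higher counts, on the scale of TMM-normalized counts.

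Cholesterol is made in the endoplasmic reticulum from acetyl-CoA by way of mevalonate, isoprenoid units and lanosterol, and in the adult brain nearly all of it is made locally because lipoproteins of the blood do not cross the blood-brain barrier. When sterols are scarce, Scap carries SREBP from the endoplasmic reticulum to the Golgi, where SREBP is cut and released to activate genes of the pathway. When sterols are plentiful, Insig proteins hold Scap back. NF-Y, a trimer of different subunits (NF-YA and its histone-fold partners NF-YB and NF-YC) that binds the CCAAT box, is a known partner of SREBP at the promoters of such genes.

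The CCAAT box is the sequence that NF-Y binds, so the promoter stretch that holds it is shown for the genes that have it. Promoters were taken from RefSeq (build GRCm38.p6) as the 250 bases before and the 50 bases after each annotated start, and all 6 genes were matched. The bases are written 5′ to 3′ along the strand of the gene and end at the base before the start. Capitals mark CCAAT, or ATTGG where the box lies on the opposite strand.
Idi1, chr13:8885546-8885605, plus strand: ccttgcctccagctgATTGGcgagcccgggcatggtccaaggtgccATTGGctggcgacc
Cyp51, chr5:4104698-4104757, minus strand: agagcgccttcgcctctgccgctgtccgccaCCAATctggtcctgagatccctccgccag
Hsd17b7, chr1:169969206-169969385, minus strand: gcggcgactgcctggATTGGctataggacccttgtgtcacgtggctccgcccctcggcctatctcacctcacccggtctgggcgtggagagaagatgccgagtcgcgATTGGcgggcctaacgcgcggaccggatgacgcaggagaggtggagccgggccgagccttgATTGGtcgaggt
Sc5d, chr9:42264301-42264360, minus strand: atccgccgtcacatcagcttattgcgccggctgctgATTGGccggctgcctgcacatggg
Insig1, chr5:28071181-28071411, plus strand: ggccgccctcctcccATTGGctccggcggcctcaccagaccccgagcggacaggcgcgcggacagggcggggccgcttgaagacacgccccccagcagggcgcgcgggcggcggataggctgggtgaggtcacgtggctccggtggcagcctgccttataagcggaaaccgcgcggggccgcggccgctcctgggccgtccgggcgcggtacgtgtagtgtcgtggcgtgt

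CCAAT was found on either strand in 5 of the 6 promoters. Across all 32851 RefSeq promoters, 37.4% had it. Hsd17b7 had 3 boxes, with their first bases at -165, -73 and -12. Idi1 had 2, at -45 and -14. Cyp51, Sc5d and Insig1 had 1 each, at -29, -24 and -216. Cyp51 was the gene with the box written in the direction of transcription, and the other boxes were on the opposite strand. No CCAAT was found at either of the 2 annotated starts of Scap. Within the last 150 bases before the start, 4 of the 6 promoters had the box, against 24.5% of all promoters, and the box of Insig1 lay outside this stretch. Hsd17b7, the gene with higher counts in the knockdown samples, had the most boxes of the 6.

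Other motifs were searched on both strands in the same windows. The sterol regulatory element, searched as TCACNCCAC, was found in none of the 6 promoters and in 1.24% of all promoters. The E-box CACGTG, which SREBP and USF factors can bind, was found in Hsd17b7, Sc5d, Insig1 and Scap and in 7.15% of all promoters. The Sp1 box GGGCGG was found in all 6 and in 35.7% of all promoters. None of these 4 motifs contains another, and a match shows only that the letters are there. A missing match shows only that this exact form is absent from the window, and variant forms were not searched.

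**Figure D1:**
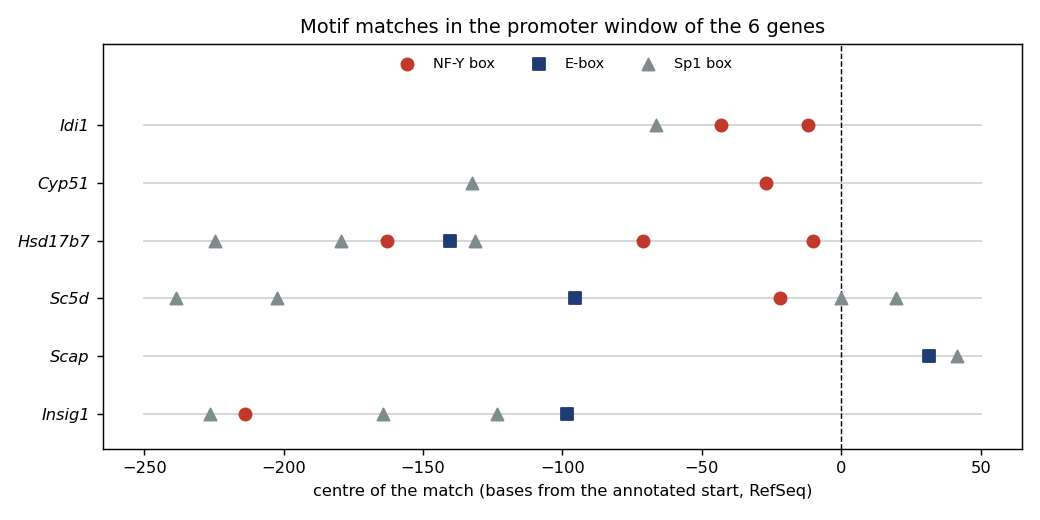
Position of CCAAT (NF-Y box), CACGTG (E-box) and GGGCGG (Sp1 box) in the promoter window of each gene, with the centre of each match on the x axis in bases from the annotated RefSeq start (dashed line), and the upstream start for Scap. The NF-Y boxes of Idi1, Cyp51 and Sc5d lie within 60 bases of the start, the 3 boxes of Hsd17b7 are spread from -165 to -12, and Scap has none.

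RNA was measured in EmGFP-positive, PI-negative cells sorted from striata of wild-type male C57BL/6 mice that had been injected at 6 weeks of age in both hemispheres with AAV1/2 vectors and killed 3 weeks later. The control group (NT2, 6 samples) received AAV-EmGFP-miR-NT2, which expresses a non-targeting miRNA, and the knockdown group (YAYC, 5 samples) received AAV-EmGFP-miR-YAYC, whose miRNAs target the NF-YA and NF-YC transcripts. Both vectors express EmGFP from the CAG promoter, which is active in neurons and in other cells, so the sort selects transduced cells and not a cell type. The labels do not say that each sample is 1 mouse, and p-values set the group difference against the spread between the samples as labelled.

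The deposited table lists only genes with a deposited p-value under 0.05 for the comparison of YAYC with NT2, so each of the 6 genes had already been selected on the difference that is described here. The estimated counts of all listed genes added up to between 1581757 and 3141324 in NT2 and between 1954949 and 3010153 in YAYC, and these sums are not the depth of the libraries. The target Nfyc had 921 ± 173 normalized counts in NT2 (SD, n = 6) and 806 ± 146 in YAYC (SD, n = 5). Its log2 fold change of -0.19 ± 0.15 (SE) did not pass the edgeR quasi-likelihood test (adjusted p = 0.26), and neither Nfya, the other target, nor Nfyb was listed. For Nfyc it was -0.32 ± 0.14 (SE) with the submitters' scaling (adjusted p = 0.053 from that test) and -0.53 with the glial marker score (defined with the results on the 6 genes) as a covariate (unadjusted p = 0.0097, adjusted p = 0.080). By quantitative RT-PCR of the sorted cells, the study reported reduced NF-YC, while the reduction of NF-YA was not significant. Normalized counts were obtained by dividing the estimated counts of a sample by its TMM factor. Genes were called at a Benjamini-Hochberg adjusted p under 0.05 over the 1767 listed genes, and with this rule 21.3% of them were called lower and 39.0% higher in YAYC. All listed genes had already been kept for a low p-value on the same samples. The adjustment is therefore lenient and does not control false discoveries over all genes measured. Because TMM assumes that most genes do not change, the edgeR fit of all samples was also run with the scaling factors of the submitters. With these, 47.3% were called lower and 32.2% higher. The edgeR fits with a covariate, with samples left out or with a minimum count were run with TMM only. The median log2 fold change of all listed genes was -0.13 with TMM and -0.27 with the submitters' scaling. Of the 6 genes, 5 were called lower and 1 higher with either scaling, and their median log2 fold change was -0.39 with TMM and -0.53 with the submitters' scaling.

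Of the markers of other cells that the sort could hold, 8 of 39 glial markers were in the table (Slc1a3, Gja1, Gjb6, Aldoc, Fgfr3 and Glul of astrocytes, Ugt8a of oligodendrocytes and P2ry12 of microglia). All 8 were lower in YAYC, with log2 fold changes from -1.54 to -0.15, and 6 were called. Their summed normalized counts ranged from 56251 to 120841 in NT2 and from 48210 to 61782 in YAYC, and none was at 0. Of 9 vascular markers, 7 were in the table, all of them lower and 5 called, with summed counts from 6653 to 10823 in NT2 and from 4497 to 7894 in YAYC. These glial and vascular markers were listed because of a deposited p-value under 0.05 for this comparison, and those not listed had no values. None of 8 neuronal markers was listed. Nor was any of 13 symbols of striatal projection neuron markers, which hold Drd1 under both its older and its newer symbol. The sorted cells could therefore not be checked against them. In striatal sections, the study found most EmGFP-expressing cells positive for the neuronal protein NeuN and a few negative. It also reported glial genes among its differing genes and removed a list of non-neuronal genes from them. In these bulk samples, fewer cells of a type and less RNA per cell cannot be told apart. The part of the lower glial and vascular markers in the results on the 6 genes was not tested, and values adjusted for a glial marker score are given with them.

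Idi1 (chr13:8884852-8891642, plus strand, in the coordinates of the table, for which the submitters' processing notes name mm9) encodes the isomerase that interconverts isopentenyl and dimethylallyl diphosphate, the building blocks of all isoprenoids. In NT2 its lowest, median and highest normalized counts were 1330, 1936 and 2413. In the YAYC samples 4, 6, 8, 10 and 22 they were 1368, 1248, 1449, 1169 and 1857. The groups overlapped, since 2 NT2 samples (numbers 3 and 7) lay within the range of the YAYC samples and the YAYC sample 22 stood apart from the other 4 at the level of the NT2 samples. Counts were 25.6% lower in YAYC, and the log2 fold change of -0.43 (standard error 0.17) was called by edgeR's quasi-likelihood test (adjusted p = 0.044). An exact two-sided permutation test of the log2 counts gave p = 0.052 with TMM and p = 0.026 with the submitters' scaling. The edgeR call was lost when NT2 sample 5, 9, 21 or 23 or YAYC sample 4, 6, 8 or 10 was left out (log2 fold change from -0.44 to -0.34 in these 8 fits). Idi1 was the gene of the 6 with the widest spread among the NT2 samples relative to its mean.

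Cyp51 (chr5:4080674-4104697, minus strand) encodes lanosterol demethylase, the cytochrome P450 enzyme that acts on the first sterol of the pathway. Its normalized counts in NT2 ran from 1723 to 2461 with a median of 1903. The YAYC samples 4, 6, 8, 10 and 22 had 1440, 1650, 1406, 1409 and 1541. Every YAYC sample was below every NT2 sample, although the highest YAYC sample was close to the 3 lowest NT2 samples. The decrease was 25.2%, with a log2 fold change of -0.42 ± 0.11 (SE; edgeR quasi-likelihood test, adjusted p = 0.016). The exact two-sided permutation test gave p = 0.0065.

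Hsd17b7 (chr1:171879668-171899336, minus strand) encodes a hydroxysteroid dehydrogenase that reduces the sterol ketone left after removal of the methyl groups from the sterol ring. It had the lowest counts of the 6 genes and was the gene that rose. The NT2 samples ranged from 389 to 576 normalized counts around a median of 451. The YAYC samples 4, 6, 8, 10 and 22 had 962, 763, 617, 586 and 859. All YAYC samples were above all NT2 samples, with YAYC samples 8 and 10 close to NT2 sample 21 and YAYC samples 4 and 22 far above it. Counts were 59.2% higher in YAYC, with a log2 fold change of 0.67 ± 0.15 (SE; edgeR quasi-likelihood test, adjusted p = 0.010), and the exact two-sided permutation test gave p = 0.0022, the smallest value possible with 6 against 5 samples. With the submitters' scaling the groups overlapped and the log2 fold change was 0.54 (adjusted p = 0.020 from the same test).

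Sc5d (chr9:42062260-42072383, minus strand) encodes the sterol desaturase that introduces the double bond of the late intermediate before the last reduction steps. In NT2 the normalized counts lay between 1716 and 2583 with a median of 1956. The YAYC samples 4, 6, 8, 10 and 22 had 1432, 1402, 1311, 1302 and 1326. The YAYC samples lay close together, 1355 ± 59 (SD, n = 5), and all were below the lowest NT2 sample, while the NT2 samples were spread more widely, 2054 ± 314 (SD, n = 6). Sc5d fell by 34.1%, with a log2 fold change of -0.60 ± 0.11 (SE; edgeR quasi-likelihood test, adjusted p = 0.0040), and the exact two-sided permutation test gave p = 0.0022. It had the strongest decrease of the 6 genes with either scaling.

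Scap (chr9:110235797-110287450, plus strand) encodes the sterol-sensing escort of SREBP. NT2 samples had from 1400 to 1902 normalized counts with a median of 1578. The YAYC samples 4, 6, 8, 10 and 22 had 1401, 1246, 1434, 1417 and 1233. The groups overlapped at their edges, as the lowest NT2 samples had counts like those of the highest YAYC samples. The decrease of 15.8% was the smallest of the 6 genes, with a log2 fold change of -0.25 ± 0.10 (SE; edgeR quasi-likelihood test, adjusted p = 0.047). The exact two-sided permutation test gave p = 0.026 with TMM and p = 0.0043 with the submitters' scaling, with which the groups did not overlap. The edgeR call was lost when NT2 sample 7, 21 or 23 or any of the YAYC samples was left out (log2 fold change from -0.27 to -0.19 in these 8 fits).

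Insig1 (chr5:28397952-28405202, plus strand) encodes the sterol-dependent anchor of Scap and is itself a well-known target of SREBP. Normalized counts in NT2 were 2427 at the lowest, 3259 at the median and 3377 at the highest. The YAYC samples 4, 6, 8, 10 and 22 had 2358, 2183, 2563, 2300 and 2647. The overlap came from NT2 sample 3, which lay within the YAYC range, whereas the other 5 NT2 samples were above all YAYC samples. Insig1 fell by 22.5%, with a log2 fold change of -0.37 ± 0.10 (SE; edgeR quasi-likelihood test, adjusted p = 0.018; exact two-sided permutation test, p = 0.011). Without NT2 sample 3 the log2 fold change was -0.43.

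**Figure D2:**
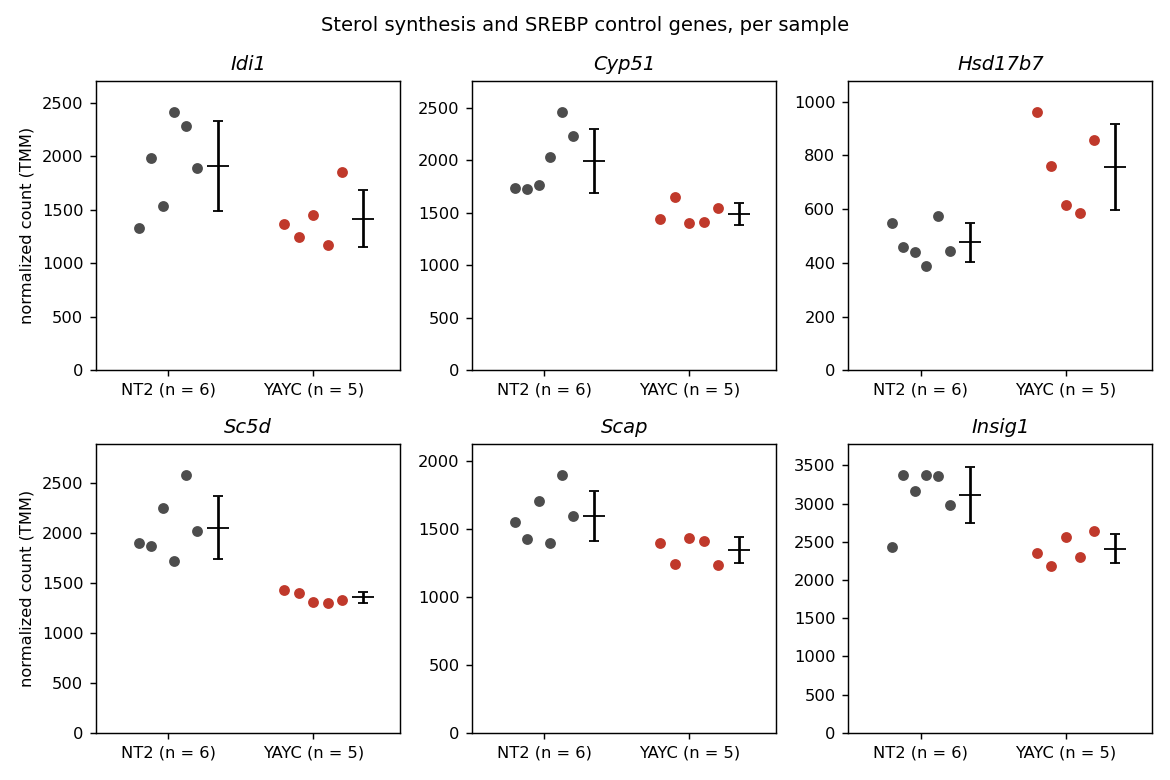
Normalized counts (TMM, y axis from 0) of the 6 genes in each of the 6 NT2 samples (grey) and 5 YAYC samples (red), in the order of the sample numbers, with the mean and SD of each group as a black bar. Cyp51 and Sc5d are lower in every YAYC sample than in every NT2 sample, Hsd17b7 is higher in every YAYC sample, and Idi1, Scap and Insig1 overlap.

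Across the 6 genes, the groups did not overlap for 2 genes that were lower (Cyp51 and Sc5d) and for 1 that was higher (Hsd17b7). Of all listed genes, 2.43% were lower and 11.4% higher without overlap. The NT2 sample 21 had the highest NT2 count in 4 of the 6 genes (Cyp51, Hsd17b7, Sc5d and Scap), in Hsd17b7 against the direction of the other 3. Without it, the log2 fold change was -0.35 for Cyp51, 0.73 for Hsd17b7, -0.52 for Sc5d and -0.19 for Scap, and Scap and Idi1 were no longer called. The sample numbers fall into a series from 3 to 10, with 4 samples in each group, and a series from 21 to 23, with 2 NT2 samples and 1 YAYC sample. Within the first series, the difference in mean log2 count between YAYC and NT2 was -0.44 for Idi1, -0.30 for Cyp51, 0.65 for Hsd17b7, -0.50 for Sc5d, -0.15 for Scap and -0.38 for Insig1. Exact two-sided permutation tests of these differences gave p = 0.029, the smallest that 4 against 4 samples allow, for Cyp51, Hsd17b7 and Sc5d, p = 0.057 for Insig1, p = 0.086 for Idi1 and p = 0.20 for Scap. The edgeR fit of these samples called Hsd17b7 and Sc5d and did not call Cyp51 (log2 fold change -0.30, adjusted p = 0.070), Idi1, Scap or Insig1. It called 57 of the 1767 listed genes lower and 150 higher, against 377 and 689 in the fit of all samples. In the second series, which is too small for a test, the differences had the same direction and were -0.16, -0.60, 0.77, -0.78, -0.50 and -0.26 in the same order of genes.

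The log2 ratio of the estimated counts of 2 genes in the same sample needs no scaling factor. It was computed after the values were seen and restates the differences above on a scale free of that choice, so it is given as a description with no test. A ratio itself depends on the lengths of the genes, so only its change between the groups is described. The log2 ratio of Hsd17b7 to Sc5d was -2.11 ± 0.19 in NT2 (SD, n = 6) and -0.86 ± 0.26 in YAYC (SD, n = 5), a difference of 1.25 (standard error 0.14), and its ranges of -2.35 to -1.79 and -1.15 to -0.57 were separate. All 5 ratios that involve Hsd17b7 were without overlap, with differences of 0.90 to 1.25 in favour of Hsd17b7. Each gene was listed for its difference between the groups, so a ratio of a higher gene to a lower one is prone to separate. The share of such ratios among other listed genes was not computed. Of the 10 ratios between the other 5 genes, 1 was without overlap. This was the log2 ratio of Sc5d to Scap, which was 0.36 ± 0.06 in NT2 (SD, n = 6) and 0.01 ± 0.13 in YAYC (SD, n = 5), a difference of -0.34 (standard error 0.065). The ratio of Idi1 to Cyp51 differed between the groups by -0.01 (standard error 0.16) and that of Cyp51 to Insig1 by -0.05 (standard error 0.12).

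A glial marker score, the mean over the 8 glial markers of the centred log2 normalized counts, was 0.37 ± 0.54 in NT2 (SD, n = 6) and -0.44 ± 0.31 in YAYC (SD, n = 5; exact two-sided permutation test, p = 0.024). The 8 markers had themselves been selected with the table on this group difference, so a difference in the score was largely fixed in advance. Its p-value says nothing on the glial markers that are not listed. With this score as a covariate, edgeR's quasi-likelihood test called none of the 6 genes at an adjusted p under 0.05, and 2 of the 6 (Sc5d and Hsd17b7) had an unadjusted p under 0.05, against 28.7% of all listed genes in that fit. DESeq2 without the covariate called all 6, and 64.4% of all listed genes in either direction. In the fit with the covariate, 0.905% of all listed genes were called lower and 3.74% higher, so few listed genes of any kind passed. All 6 genes had the same direction as without the covariate. The log2 fold change went from 0.67 to 0.61 for Hsd17b7 (unadjusted p = 0.016, adjusted p = 0.0998), from -0.60 to -0.47 for Sc5d (unadjusted p = 0.0066, adjusted p = 0.070) and from -0.42 to -0.34 for Cyp51 (unadjusted p = 0.052, adjusted p = 0.18). It went from -0.25 to -0.17 for Scap (adjusted p = 0.38), from -0.43 to -0.13 for Idi1 (adjusted p = 0.64) and from -0.37 to -0.14 for Insig1 (adjusted p = 0.39). Idi1 and Insig1 thus moved the most of the 6. Over the 18 alternatives, the adjusted p ranged from 1.4e-05 to 0.070 for Sc5d, from 0.0011 to 0.0998 for Hsd17b7, from 0.0033 to 0.18 for Cyp51, from 0.0026 to 0.39 for Insig1, from 0.014 to 0.64 for Idi1 and from 0.020 to 0.38 for Scap.

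**Figure D3:**
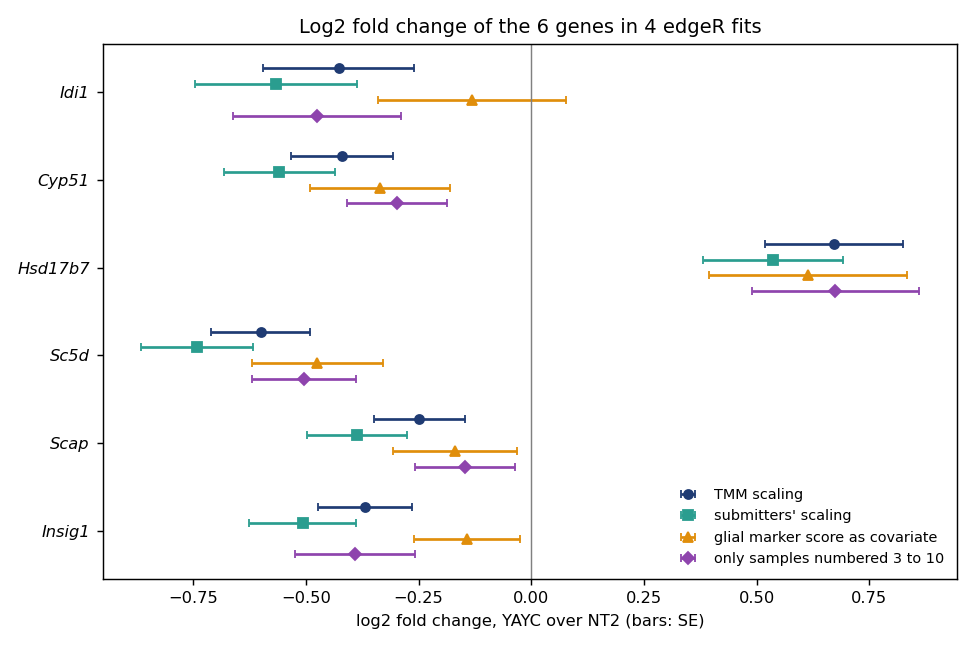
Log2 fold change of YAYC over NT2 for each gene (x axis, bars are standard errors) in edgeR fits with TMM scaling, with the submitters' scaling, with the glial score as a covariate and with only the samples numbered 3 to 10. Hsd17b7 is positive and the other 5 genes are negative in each fit, and with the covariate Idi1 and Insig1 move to -0.13 and -0.14.

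Whether the genes vary together among samples of the same group was examined on deviations from the group means, which leave out the difference between the groups. The choice of the table by p-value still bears on them through the spread within groups and the scaling. For each of the 15 pairs of genes, these deviations of the log2 counts were correlated over the 11 samples, and all orders of the values within the groups were enumerated. The pair that passed was Idi1 and Insig1, with Pearson's r of 0.83 (exact permutation test, p = 0.0024; adjusted p = 0.036 over the 15 pairs) and Spearman's rho of 0.86 (exact permutation test, p = 0.0023; adjusted p = 0.034). This r was higher than that of Idi1 with 99.5% of the other listed genes. NT2 sample 3 was the lowest NT2 sample for both genes and YAYC sample 22 the highest YAYC sample for both, and without these samples, the 2 farthest from the median of Idi1, r was 0.71. Sc5d and Scap had r = 0.79 (exact permutation test, p = 0.011; adjusted p = 0.084) and rho = 0.70 (adjusted p = 0.38), and without NT2 samples 9 and 21 r was 0.44, so the relation rested largely on these samples. Idi1 and Sc5d, both enzymes of the pathway, had r = -0.01. Hsd17b7 had r from -0.19 with Insig1 to 0.51 with Sc5d, and it did not pass the test with any of the other 5 genes.

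The glial marker score had r = 0.79 with Insig1 within the groups (exact permutation test, p = 0.0091; adjusted p = 0.054 over 6 relations) and rho = 0.68 (adjusted p = 0.19), and r was 0.57 without NT2 samples 3 and 21. With Idi1 it had r = 0.54 (exact permutation test, p = 0.13), and this fell to 0.10 without the same samples. With Hsd17b7 it had r = -0.14, and 0.02 with the submitters' scaling. NT2 sample 3, with low Idi1 and Insig1, had the lowest score of the NT2 samples (-0.45). The highest score (1.04) was that of NT2 sample 21, which had the highest NT2 counts of Cyp51, Hsd17b7, Sc5d and Scap. The part of the glial markers in the joint variation of Idi1 and Insig1 was not tested.

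**Figure D4:**
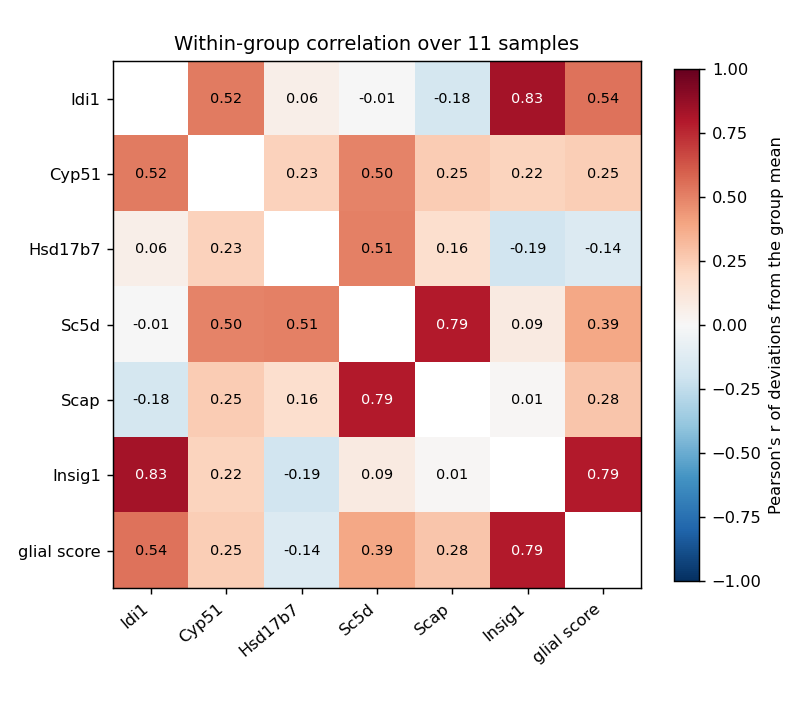
Pearson's r of the deviations from the group means of log2 normalized counts over the 11 samples, for each pair of the 6 genes and for each gene with the glial marker score (both axes list the genes and the score). The highest values are those of Idi1 with Insig1 (0.83), Insig1 with the score (0.79) and Sc5d with Scap (0.79).

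The wider pathway was described with a list of 52 genes, of which 11 were in the table. Of 21 genes of sterol synthesis, 7 were listed, with 3 called lower (Idi1, Cyp51 and Sc5d) and 1 higher (Hsd17b7), and a median log2 fold change of -0.37. Of 12 genes of SREBP control, 3 were listed, with 2 called lower (Scap and Insig1) and a median of -0.25. Of 19 genes of sterol uptake, transfer, efflux and clearance, Ch25h was listed and called higher. With the submitters' scaling, 9 of the 11 were called lower and 2 higher, beside the shares of all listed genes given above. Genes of the list that are not in the table, Srebf2 among them, had no values here.

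Among the early steps, Acat2, the cytosolic thiolase that starts the pathway, had from 417 to 852 normalized counts in NT2 with a median of 703, and the YAYC samples 4, 6, 8, 10 and 22 had 534, 526, 459, 554 and 556. The groups overlapped through NT2 sample 3, the lowest of all samples. Acat2 stood at -0.37 ± 0.16 (SE) on the log2 scale, close to Idi1, but did not pass the edgeR quasi-likelihood test (adjusted p = 0.059). Between Cyp51 and Hsd17b7 in the pathway, Lbr, a sterol reductase that is also the lamin B receptor, had -0.21 (adjusted p = 0.11) and Sc4mol, the methylsterol oxidase now named Msmo1, had -0.20 (adjusted p = 0.15). Rnf139, a membrane ubiquitin ligase of the endoplasmic reticulum, had -0.18 (adjusted p = 0.20). These 4 genes did not pass the edgeR test with TMM and were called lower with the submitters' scaling. With the glial score as a covariate, Acat2 and Sc4mol were at 0.07 and 0.13, and Lbr and Rnf139 were at -0.14 and -0.20.

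Ch25h encodes the hydroxylase that makes an oxysterol able to block SREBP processing, and is known as an interferon-induced gene. NT2 samples had from 322 to 536 normalized counts with a median of 370, and the YAYC samples 4, 6, 8, 10 and 22 had 681, 815, 919, 590 and 1033. The groups were separate, and Ch25h was 2.10 times as high in YAYC, with a log2 fold change of 1.07 ± 0.17 (SE; edgeR quasi-likelihood test, adjusted p = 0.0019) and 0.89 once the glial score was a covariate. Of the 5 genes of the list outside the 6, 4 had a promoter in the RefSeq table, and CCAAT was found in Lbr and Sc4mol.

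**Figure D5:**
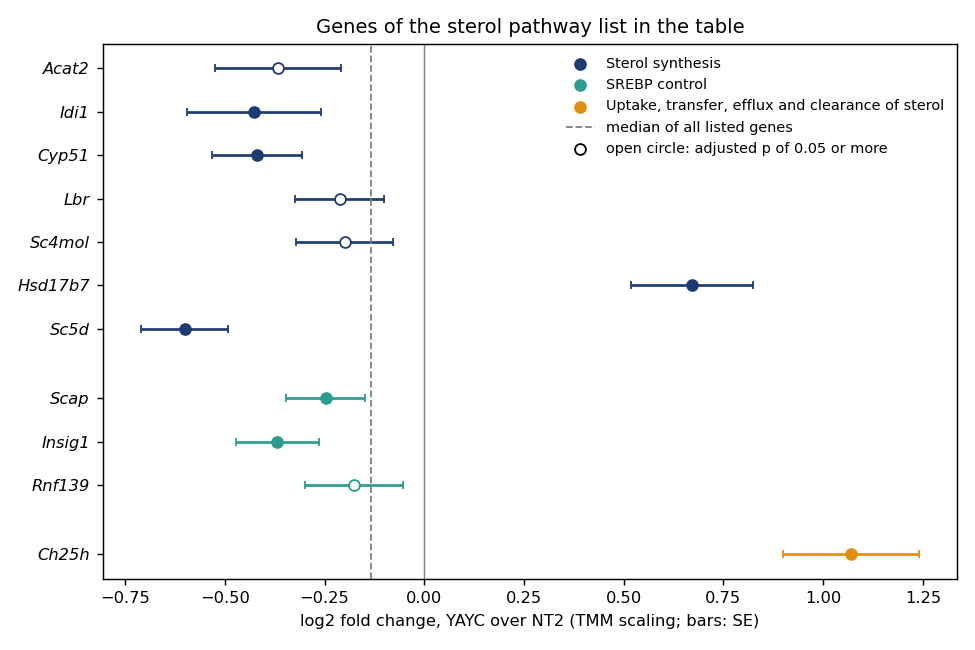
Log2 fold change of YAYC over NT2 (x axis, TMM scaling, bars are standard errors) of the 11 genes of the sterol pathway list in the table, grouped as synthesis, SREBP control, and uptake, transfer, efflux and clearance. Filled circles are genes called at an adjusted p under 0.05, and the dashed line is the median of all listed genes at -0.13. Of the genes to the right of 0, Hsd17b7 is at 0.67 and Ch25h at 1.07.

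The listed genes with the most similar pattern over the 11 samples were found by the root mean square difference of centred log2 normalized counts. They were Pkd2 (0.155) and Tsc22d3 (0.171) for Idi1, Tom1l2 (0.128) and Rabgap1 (0.132) for Cyp51, and Sgcb (0.163) and Pdia6 (0.198) for Hsd17b7. For Sc5d they were Eps15 (0.121) and Ptplad1 (0.135), for Scap Tprgl (0.082) and Zfp740 (0.086), and for Insig1 Slc7a11 (0.104) and Paqr7 (0.116). None of the 6 genes was among the 2 nearest genes of another of the 6. The difference takes in the change between the groups as well as the spread within them, so it is a description only.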

How the data were processed

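RNA-seq data of EmGFP-positive cells from mouse striata were analysed, with 6 NT2 and 5 YAYC samples grouped by their labels. The authors used Strand NGS to count reads and deposited estimated counts per gene, which are not normalized and of which 46.3% were whole numbers. The deposited log2 values hold the same counts after scaling by sample and centring by gene, and the scaling factors were recovered from 1247 genes with over 50 counts in every sample. The deposited p-value was read only to count the genes under 0.05, which were 1767 of 1767, and the deposited fold changes of the authors were not used. The submitters' processing notes name the build mm9, without its role. The aligner is not given in the sources used here.

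Estimated counts were rounded and fitted over all 1767 genes with edgeR 4.0.16 (R 4.3.3; glmQLFit, glmQLFTest) on TMM factors, with group as the only term and Benjamini-Hochberg adjustment. Since the table had been selected by p-value, scaling and adjustment were computed over genes of which most differ between groups. Permutation tests were exact, two-sided and over all 462 divisions of the samples, on log2 of the normalized count plus 0.5. Correlations enumerated all 86400 orders within the groups, using numpy 2.4.6. The alternatives were DESeq2 1.42.0, its size factors, the submitters' scaling, the study's minimum of 200 for the highest count, its call rule of an unadjusted p under 0.05 with a fold above 1.2, a pseudocount of 5, covariates, the samples numbered 3 to 10, and leaving out each sample. The scripts were tested on simulated data. No samples of a group agreed within counting noise (lowest chi-square per degree of freedom 20.5 over 25 pairs), so each was kept as a replicate. Library depth was not computed, and precision is bounded by each gene's own counts.

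The 6 genes, the pathway list and the marker lists were chosen with earlier results of these data known. The genes named are the 6, Nfya, Nfyb and Nfyc, genes of the pathway and marker lists, and the 2 listed genes nearest in pattern to each of the 6. Array data of N2a cells were not used here. Some genes of the pathway list are not reported here.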

Additional observations from a re-analysis of the deposited data

How the results depend on the processing

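No log2 fold change of the 6 genes changed direction under any alternative run. Where a call was lost or a count moved, the cause was not tested. Adjusted for the glial marker score, no gene of the 6 was called by edgeR (log2 fold change -0.13 for Idi1, -0.34 for Cyp51, 0.61 for Hsd17b7, -0.47 for Sc5d, -0.17 for Scap and -0.14 for Insig1; 2 with an unadjusted p under 0.05, against 28.7% of all listed genes), so that 0 were called lower and 0 higher, and 16 listed genes were called lower and 66 higher. With only the samples numbered 3 to 10, which has fewer samples, the calls of Idi1 (-0.47), Cyp51 (-0.30), Scap (-0.15) and Insig1 (-0.39) were lost, 1 of the 6 was called lower, 57 listed genes were called lower and 150 higher, and the difference in glial score was -0.80 (exact permutation test, p = 0.086). With the study's minimum of 200 counts, which left 439 listed genes out of the fit, Idi1 (-0.38) and Scap (-0.20) were lost. Of the 6, 3 were called lower and 1 higher. Of the listed genes kept in this smaller fit, 180 were called lower and 463 higher. With the number series as a covariate, Scap (-0.23) was lost. The study's call rule of an unadjusted p under 0.05 with a fold above 1.2 was applied to the edgeR fit. It called 4 of the 6 lower and 1 higher. Scap, at 0.84 of the NT2 level, fell short of that fold. The same rule called 457 listed genes lower and 720 higher. The study's removal of non-neuronal genes was not applied, so these are not the study's own calls. With the submitters' scaling, 836 listed genes were called lower. Leaving out each sample in turn, the log2 fold change ranged from -0.54 to -0.34 for Idi1 and from -0.28 to -0.19 for Scap, the number of the 6 called lower from 3 to 5, and the number of listed genes called lower from 208 to 441 (208 to 249 without NT2 sample 5, 7 or 21 or YAYC sample 4, 6 or 8).

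Of the correlations within groups, those of Idi1 with Sc5d (r = 0.21), Idi1 with Scap (0.082), Hsd17b7 with Insig1 (0.0010) and Hsd17b7 with the glial score (0.019) were above 0 with the submitters' scaling and below it with TMM, and none of these passed the test. The NT2 samples had odd numbers and the YAYC samples even numbers. The labels state no pairing between them, and no paired analysis was run.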
